A study of Mus musculus with 8 samples.

Results

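The IL-6 family of cytokines and its gp130 receptors were examined as 9 genes in PyMt mammary tumors, 5 of them ligands (Osm, Lif, Clcf1, Il6 and Il11) and 4 of them receptor chains (Osmr, Lifr, Il6ra and Il6st). All 9 were found by symbol among the 55414 gene identifiers of the table and all 9 passed the filter on low counts, which left 14458 genes for the test. The genes were chosen by name with earlier results of the calcipotriol and EtOH comparison in view, so their differences between the treatments are given below as a description without p-values.

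Bulk RNA-Seq was carried out on tumors from 4 EtOH-treated mice (replicates 1 to 4) and 4 calcipotriol-treated mice (replicates 1, 5, 6 and 7). In both groups the PyMt cell line had been implanted into the inguinal mammary fat pad of wild-type female C57BL/6 mice aged 6 to 8 weeks. The line came from a tumor of a transgenic mouse in which the MMTV promoter drives the polyoma middle T oncogene in mammary epithelium. Calcipotriol, a vitamin D analog of low calcemic activity, was applied to the skin at 20 nmol every 2 days from 2 days after implantation, and EtOH was its solvent control. Tumors were collected 24 hours after the last application. All tumors thus came from 1 transplanted line in hosts with an intact immune system, and the comparison asks how topical calcipotriol changes the RNA of the whole tumor, stroma and leukocytes included. In bulk RNA, fewer cells of a type and less RNA per cell cannot be told apart.

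Cytokines of the IL-6 family share gp130, the signal-transducing chain encoded by Il6st. Each ligand adds its own partner: IL-6 and IL-11 first bind the non-signaling alpha chains encoded by Il6ra and Il11ra1, LIF joins gp130 to the LIF receptor, oncostatin M joins it mainly to the oncostatin M receptor in the mouse, and CLCF1 uses the CNTF receptor alpha chain with LIFR and gp130. The engaged chains activate JAK kinases and chiefly STAT3, and SOCS3 is a feedback brake that binds gp130. In tumors these cytokines are known as signals among leukocytes, fibroblasts, endothelium and carcinoma cells.

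Library totals were between 19685419 and 25084713 counts, so that 3 counts stood for 0.119 to 0.146 CPM (counts scaled to the size of the library after TMM normalization). The biological coefficient of variation, which measures variation among tumors treated alike beyond counting error, was 0.347. With calcipotriol, 155 genes were called higher and 137 lower past both thresholds, which were an adjusted p under 0.05 by edgeR's quasi-likelihood test and a log2 fold change of 1 or more in either direction. EtOH replicates 1 and 2 stood apart from EtOH replicates 3 and 4 in several markers, as given further on. The labels name the cell type as epithelial. Epithelial keratins Krt8 and Krt18 were present in all 8 tumors at 260 to 665 CPM, whereas Epcam and Krt19 were at 0 counts in EtOH replicates 1 and 2, and macrophage, fibroblast and endothelial markers were present in all tumors.

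Of the 9 members, Osmr and Clcf1 were higher with calcipotriol past both thresholds and 0 were lower, beside 1.07% of all tested genes called higher and 0.948% called lower. The 4 calcipotriol values lay above the 4 EtOH values without overlap for Osmr, Clcf1, Lif and Il11, and lay below them for no member, beside 6.32% and 6.16% of tested genes that were separated upwards and downwards. The groups overlapped for Osm, Il6, Lifr, Il6ra and Il6st. The median log2 fold change of the 9 members was 0.25, beside 0.02 over all genes tested. The members were selected on this contrast, so nothing is read from these counts.

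Promoter sequence is shown for 3 of the ligands, because Lif and Il11 were separated between the groups and Il6 was not. RefSeq starts (GRCm38.p6) were held for 7 of the 9 members, and those of Osm and Clcf1 were not used here. The 250 bases before each start were searched on both strands for TGANTCA, the core that AP-1 dimers of FOS and JUN proteins recognise, for TTCNNNGAA, the core of STAT sites, and for the DR3 element of the vitamin D receptor. These were present in 6.75%, 7.02% and 0.0396% of 32851 promoters of the same length. Capitals mark the TGANTCA match, and stretches that overlap an annotated exon were left out.
Lif, chr11:4257318-4257556, plus strand: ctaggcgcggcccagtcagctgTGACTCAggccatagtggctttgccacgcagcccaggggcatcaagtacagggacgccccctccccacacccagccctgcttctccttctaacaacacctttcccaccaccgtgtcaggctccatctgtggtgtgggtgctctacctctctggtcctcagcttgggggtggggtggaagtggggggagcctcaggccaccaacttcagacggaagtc
Il11, chr7:4778142-4778391, minus strand: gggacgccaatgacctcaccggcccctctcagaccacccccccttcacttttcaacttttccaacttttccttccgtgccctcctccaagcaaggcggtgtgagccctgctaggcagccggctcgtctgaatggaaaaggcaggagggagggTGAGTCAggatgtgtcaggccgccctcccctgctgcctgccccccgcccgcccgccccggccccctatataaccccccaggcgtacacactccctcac
Il6, chr5:30012864-30013113, plus strand: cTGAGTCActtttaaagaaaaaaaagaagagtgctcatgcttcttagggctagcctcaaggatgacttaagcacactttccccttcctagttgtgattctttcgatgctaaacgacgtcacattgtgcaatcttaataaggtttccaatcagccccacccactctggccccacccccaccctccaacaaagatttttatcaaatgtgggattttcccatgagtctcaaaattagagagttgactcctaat
The match began 228 bases before the start in Lif, 98 bases before it in Il11 and 249 bases before it in Il6. The Il11 stretch belongs to the more downstream of its 2 listed starts, and the other held no match. Neither TTCNNNGAA nor the DR3 element occurred in the searched bases of these 3 ligands. None of the 3 motifs occurred in those of Osmr, Lifr, Il6ra and Il6st. For Osmr and Il6ra all 250 of those bases overlapped annotated exons, so no exon-free stretch was available for either gene. A match of letters is not a binding site, and its absence says only that the letters are not in this window.

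Lif (ENSMUSG00000034394, chr11:4257557-4272514 in GRCm38) encodes leukemia inhibitory factor, a ligand of LIFR and gp130. It was at 15.1, 13.3, 42.1 and 37.6 CPM in EtOH replicates 1 to 4 and at 62.2, 72.4, 73.1 and 72 CPM in calcipotriol replicates 1, 5, 6 and 7. The groups did not overlap, and the calcipotriol tumors were close together (highest over lowest 1.18) where the EtOH tumors spread over 3.17-fold. The fitted difference was 2.58-fold, a log2 fold change of 1.37 ± 0.34 (SE, n = 4 tumors a group), which did not pass the adjusted threshold of the main test. DESeq2 placed it past both thresholds, where it called 2.24% of tested genes higher, and limma-voom did as well, where it called 0.865%. The edgeR fit with no low-count filter also placed Lif past both thresholds. Those with DESeq2 size factors or a minimum of 10 counts in every tumor did not. Of the 8 fits without a tumor, 1 placed Lif past both thresholds (without EtOH replicate 3). The log2 fold change was 2.30 against EtOH replicates 1 and 2 alone and 0.81, not past the thresholds, against EtOH replicates 3 and 4 alone.

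Clcf1 (ENSMUSG00000040663, chr19:4214238-4223490) encodes cardiotrophin-like cytokine factor 1, a neurotrophic and B-cell-stimulating ligand. Its levels were 55.6, 28.7, 39.9 and 40.8 CPM in EtOH replicates 1 to 4 and 67.8, 104, 115 and 92.3 CPM in calcipotriol replicates 1, 5, 6 and 7. All calcipotriol tumors were above all EtOH tumors, with calcipotriol replicate 1 the nearest to EtOH replicate 1. The fitted difference was 2.30-fold, log2 1.20 ± 0.22 (SE), past both thresholds. With EtOH replicate 2, EtOH replicate 3 or calcipotriol replicate 5, 6 or 7 left out, the log2 fold change stayed between 1.06 and 1.22 and Clcf1 was no longer past both thresholds. A protein-coding gene that overlaps Clcf1 (AC109138.7) had a mean of 4.5 counts.

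Il11 (ENSMUSG00000004371, chr7:4772373-4782859), a stromal cytokine of the family with a role in fibrosis and hematopoiesis, was rare. Its counts were 9, 0, 9 and 7 in EtOH replicates 1 to 4 and 73, 133, 20 and 18 in calcipotriol replicates 1, 5, 6 and 7. The groups did not overlap, calcipotriol replicate 5 was the highest, and calcipotriol replicates 6 and 7 were far below replicates 1 and 5. In CPM the calcipotriol tumors ran from 0.763 to 6.08 and the EtOH tumors from 0 to 0.438. The fitted log2 fold change was 3.24 ± 0.98 (SE), the greatest of the 9 members, with the largest SE. Without calcipotriol replicate 5 it was 2.45, and among the tests run DESeq2 alone placed it past both thresholds.

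Osm (ENSMUSG00000058755, chr11:4236420-4241026) encodes oncostatin M, a cytokine largely made by macrophages, neutrophils and T cells. It was at 17, 9.78, 22.1 and 31.6 CPM in EtOH replicates 1 to 4 and at 12.8, 27.3, 21.4 and 20.9 CPM in calcipotriol replicates 1, 5, 6 and 7. The calcipotriol range lay wholly inside the EtOH range, with a log2 fold change of 0.03 ± 0.33 (SE). Osm and Lif are neighbours on chromosome 11, both on the plus strand, with 16530 bases and no annotated gene between them.

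Il6 (ENSMUSG00000025746, chr5:30013114-30019981), the inflammatory and acute-phase cytokine that names the family, was low. It stood at 0.584, 2.14, 4.66 and 4.41 CPM with EtOH and at 0.834, 3.38, 3.80 and 2.97 CPM with calcipotriol, in the order of replicates used above. Each group held 1 tumor below 1 CPM, EtOH replicate 1 and calcipotriol replicate 1. The log2 fold change was -0.11 ± 0.65 (SE), so a change in either direction was not detectable.

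**Figure D1:**
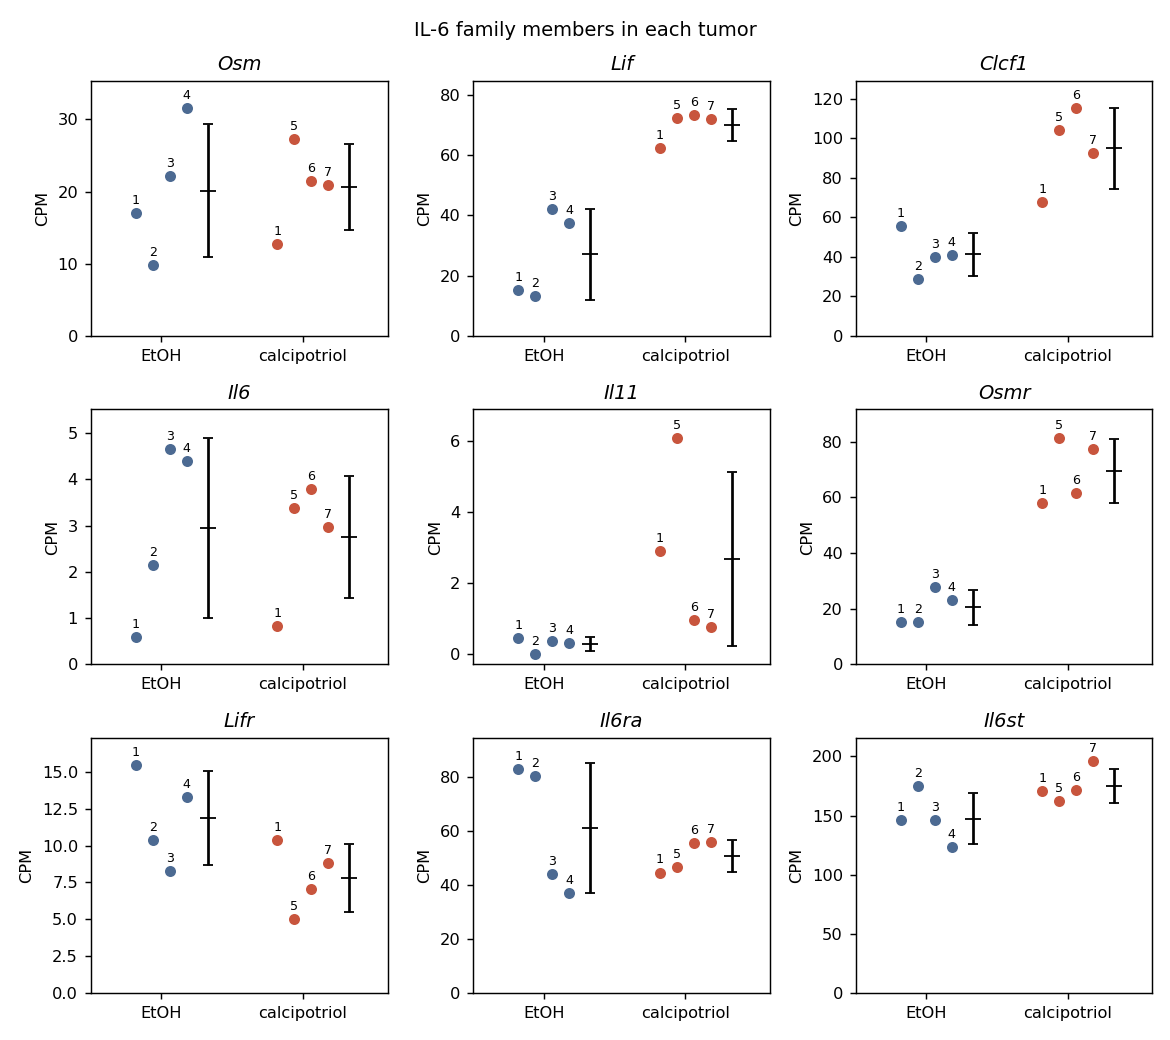
Level of each member in CPM (linear axis) in the 4 EtOH-treated (blue) and 4 calcipotriol-treated (red) tumors, with replicate numbers above the points and the mean and SD as a bar. Osmr, Lif, Clcf1 and Il11 have no overlap between the groups, as in Osmr with at most 27.9 CPM with EtOH and at least 58.1 CPM with calcipotriol.

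Osmr (ENSMUSG00000022146, chr15:6813577-6874969) encodes the oncostatin M receptor chain, which also serves IL-31 together with IL31RA. Its level was 15.2, 15.4, 27.9 and 23.3 CPM in EtOH replicates 1 to 4, and 58.1, 81.4, 61.6 and 77.3 CPM in calcipotriol replicates 1, 5, 6 and 7. The lowest calcipotriol tumor was above the highest EtOH tumor by a wide margin. Means were 20.5 ± 6.27 and 69.6 ± 11.5 CPM (SD, n = 4), a fitted 3.40-fold difference with a log2 fold change of 1.76 ± 0.22 (SE). Osmr was past both thresholds in all 15 alternative fits, and leaving out any 1 tumor kept its log2 fold change between 1.65 and 1.95. Its ligand Osm overlapped between the same tumors.

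Lifr (ENSMUSG00000054263, chr15:7090614-7197489) encodes the chain used by LIF and CLCF1, and lies 215644 bases from Osmr with 0 protein-coding genes between them. It was measured at 15.5, 10.4, 8.30 and 13.3 CPM with EtOH and at 10.4, 5.02, 7.02 and 8.82 CPM with calcipotriol. The groups overlapped, and calcipotriol replicate 5, which had the highest Osmr, had the lowest Lifr. The log2 fold change was -0.60 ± 0.28 (SE), negative in each fit that left out a tumor (-0.77 to -0.43), and not past the thresholds.

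Il6ra (ENSMUSG00000027947, chr3:89864059-89913196) encodes the alpha chain that binds IL-6 and can be shed as a soluble receptor. Values of 83, 80.7, 44 and 37.1 CPM were found in EtOH replicates 1 to 4, and of 44.7, 46.9, 55.6 and 55.9 CPM in the calcipotriol-treated tumors. EtOH replicates 1 and 2 were above every calcipotriol tumor. EtOH replicates 3 and 4 were below every one of them, replicate 3 by a narrow margin. The log2 fold change was -0.27 ± 0.25 (SE), and it was 0.33 against EtOH replicates 3 and 4 alone, so its direction rested on EtOH replicates 1 and 2. The antisense gene Gm42809 overlaps Il6ra, with a mean of 11 counts.

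Il6st (ENSMUSG00000021756, chr13:112464070-112510086) encodes gp130 itself. It had the smallest SE of the 9 members, at 146, 175, 146 and 123 CPM with EtOH and at 171, 162, 172 and 196 CPM with calcipotriol. The log2 fold change was 0.25 ± 0.13 (SE), with overlap between the groups through EtOH replicate 2.

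Per kilobase of exon, the order of the members' levels differed between the groups. In EtOH-treated tumors the mean CPM per kb of exon was 13.3 for Il6st, 10.8 for Clcf1, 8.86 for Osm, 7.08 for Il6ra, 6.21 for Lif, 1.69 for Osmr, 1.21 for Il6, 1.10 for Lifr and 0.133 for Il11. Among neighbours in that order the ranges over tumors were separated between Lif and Osmr and between Lifr and Il11, and the ranges of the other neighbours overlapped. Within tumors, Osmr was above Il6 in all 4 EtOH tumors although their ranges overlapped. With calcipotriol the order was Clcf1 at 24.9, Lif at 16.1, Il6st at 15.8, Osm at 9.07, Il6ra at 5.88, Osmr at 5.75, Il11 at 1.29, Il6 at 1.13 and Lifr at 0.726 CPM per kb. Here the ranges of Clcf1 and Lif, of Il6st and Osm, and of Osmr and Il11 were separated. The exons of Osmr sum to 12113 bases over its transcripts but to 5491 in the longest one, and with the latter Osmr was at 3.73 CPM per kb with EtOH and 12.7 with calcipotriol, the 4th highest member in that group.

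On the same CPM per kb scale, the receptor chains that pair with gp130 were set against each other within each tumor. Osmr made up 4.99%, 5.4%, 11.7% and 9.9% of the sum of Osmr, Lifr, Il6ra and Il11ra1 in EtOH replicates 1 to 4, and 21.6%, 31.3%, 19.8% and 26.4% in calcipotriol replicates 1, 5, 6 and 7. These shares did not overlap between the groups, with means of 8% ± 3.32 and 24.8% ± 5.17 (SD, n = 4). With the exon sums as length, Il11ra1, the IL-11 receptor alpha chain, was the most abundant of the partner chains in every tumor, at 41.3% to 61.7%. The log2 ratio of Osmr to Lifr was -0.20, 0.40, 1.58 and 0.64 with EtOH and 2.31, 3.85, 2.96 and 2.96 with calcipotriol. gp130 over the sum of its 4 partners was 0.608 ± 0.0729 with EtOH and 0.677 ± 0.052 with calcipotriol (SD, n = 4), with overlapping tumors. With the longest transcript as length the Osmr share was 7.69% to 16.5% with EtOH and 27% to 41.2% with calcipotriol, and the log2 ratio of Osmr to Lifr was 0.79 to 2.57 and 3.29 to 4.83, so that the sign in EtOH replicate 1 depends on the length used while the groups stay apart. Osmr takes part in both the share and the ratio, so these repeat its difference on another scale.

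**Figure D2:**
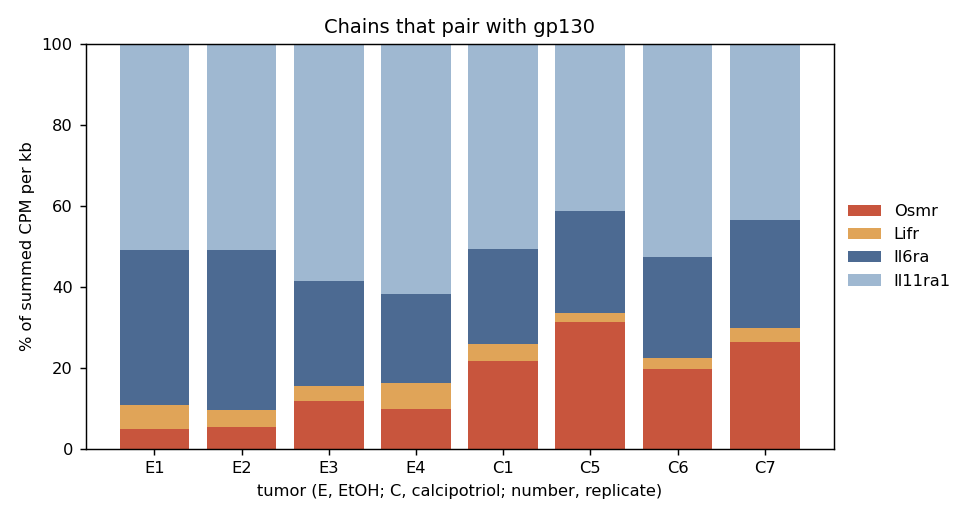
Share of the summed level (CPM per kb of exon, in %) of the 4 receptor chains that pair with gp130, stacked for each of the 8 tumors. The Osmr share is at most 11.7% in EtOH-treated tumors and at least 19.8% in calcipotriol-treated tumors, and Il11ra1 holds the greatest share in every tumor.

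Beyond the members, 52 other genes of the pathway were listed and 46 were tested. Past both thresholds 4 were higher with calcipotriol and 0 lower, beside 1.07% of all tested genes called higher and 0.948% called lower. The median log2 fold change of these pathway genes was -0.01, beside 0.02 over all genes tested. At an unadjusted p under 0.05 by the same test, 9 were higher and 5 lower. Past both thresholds DESeq2 counted 5 higher and 0 lower, where it called 2.24% of tested genes higher. With limma-voom 4 were higher and 0 lower, where it called 0.865% of tested genes higher. By role, 0 of 3 tested other ligands, 0 of 2 other receptors, 0 of 11 signal transducers, 0 of 11 brakes and sheddases and 4 of 19 targets were higher. The lists were written with earlier results of these data known, so these counts are a description and nothing is read from them. Adjusted p-values below are from edgeR's quasi-likelihood test over all 14458 genes. They stand for single genes and do not test a list.

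The alpha chain that CLCF1 binds, Cntfr, was near absence, a gene singled out after its values were seen: it had 0 counts in all EtOH tumors and 0, 6, 6 and 0 in the calcipotriol tumors. The 3 other ligands tested had no call by edgeR, DESeq2 or limma-voom, and 1 was higher at an unadjusted p under 0.05 by edgeR. The cardiotrophin gene Ctf1 was low, at 0.973 to 2.31 CPM with EtOH and 1.92 to 5.44 CPM with calcipotriol (log2 1.18 ± 0.49, edgeR adjusted p = 0.232). Cntf, the ciliary neurotrophic factor, had a log2 fold change of -1.12 ± 1.07 (edgeR adjusted p = 0.629).

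The 2 other receptors tested had no call by edgeR, DESeq2 or limma-voom and none at an unadjusted p under 0.05. Il11ra1 was level at 51.4 to 57.3 CPM with EtOH and 39.7 to 60.1 CPM with calcipotriol (log2 -0.13 ± 0.14, adjusted p = 0.673), and Il27ra, the IL-27 receptor, was low in both groups (log2 -0.28 ± 1.06, adjusted p = 0.922). Il31ra, the other partner of the OSMR chain, was also looked up after seeing values. It had 0 counts in every EtOH tumor and reached at most 0.358 CPM with calcipotriol, and Il31 was at 0 in all 8 tumors, which allows up to 0.146 CPM.

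None of the 11 signal transducers was past both thresholds by edgeR, DESeq2 or limma-voom, and at an unadjusted p under 0.05 by edgeR 1 was higher and 3 lower. The DESeq2 adjusted p was 0.0153 for Jak2 and 0.00789 for Shc1, whose log2 fold changes were short of the minimum of 1. Without calcipotriol replicate 1 the edgeR adjusted p was 0.0237 for Jak2 and 0.0335 for Shc1. The limma-voom adjusted p was 0.0754 and 0.0601. Jak2 went from 90.3 ± 15.4 to 138 ± 24.7 CPM (SD, n = 4; log2 0.61 ± 0.17, edgeR adjusted p = 0.0822), and Jak1, the kinase most used by gp130, from 186 ± 26.4 to 139 ± 18.4 CPM (log2 -0.42 ± 0.15, edgeR adjusted p = 0.156). Jak1 was separated between the groups, at 163 to 221 CPM with EtOH and 115 to 157 CPM with calcipotriol, whereas Jak2 overlapped. Shc1, the adaptor that links receptors to RAS, was separated too, at 147 to 194 CPM with EtOH and 101 to 131 CPM with calcipotriol. Its edgeR adjusted p was 0.0668 (log2 -0.54 ± 0.14). Stat3 ranged from 154 to 206 CPM with EtOH and from 207 to 234 CPM with calcipotriol, separated by a narrow gap, with a log2 fold change of 0.28 ± 0.13 and an adjusted p of 0.273.

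None of the 11 brakes and sheddases passed by the main edgeR test or limma-voom, and DESeq2 placed Cish past both thresholds. At an unadjusted p under 0.05 by the main edgeR test 1 was higher and 1 lower. Socs3, the gp130 feedback inhibitor and STAT3 target, was at 138 to 165 CPM with EtOH and 131 to 158 CPM with calcipotriol (log2 -0.15 ± 0.12, adjusted p = 0.561). Cish, a STAT5-induced inhibitor, was separated between the groups, at 6.52 to 19.2 CPM against 22.6 to 35.4 CPM, but had an adjusted p of 0.0822 (log2 1.13 ± 0.31). Cish was past both thresholds by edgeR with no low-count filter. It was so against EtOH replicates 1 and 2 alone (log2 1.80), but not against EtOH replicates 3 and 4 alone (log2 0.68). Ptpn6, the phosphatase SHP-1 of hematopoietic cells, had a log2 fold change of -0.74 ± 0.29 (adjusted p = 0.21), and without calcipotriol replicate 1 one of -1.05 with an adjusted p of 0.0332.

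All 4 pathway genes past both thresholds were targets, genes that STAT3 is known to induce and that other pathways drive as well. Lcn2, the iron-binding acute-phase protein lipocalin 2, was at 13.7, 15.5, 10.9 and 15 CPM with EtOH and at 43, 184, 79.3 and 85 CPM with calcipotriol (log2 2.83 ± 0.38, edgeR adjusted p = 0.00683). Vegfa, the angiogenic growth factor, went from 92.1 ± 17.8 to 248 ± 14.1 CPM (SD, n = 4; log2 1.43 ± 0.16, edgeR adjusted p = 0.00233). These were past both thresholds in all 15 alternative fits. Timp1, an inhibitor of matrix metalloproteinases and a classical oncostatin M target, was at 149, 136, 283 and 312 CPM with EtOH and at 501, 501, 557 and 434 CPM with calcipotriol (log2 1.18 ± 0.26, edgeR adjusted p = 0.0432). Fos, an AP-1 subunit induced by many growth signals, was at 346, 321, 214 and 197 CPM with EtOH and at 370, 642, 700 and 674 CPM with calcipotriol (log2 1.15 ± 0.25, edgeR adjusted p = 0.0379). All 4 were without overlap between the groups, beside 6.32% of tested genes that were separated upwards. Of the 8 fits without a tumor, Timp1 stayed past both thresholds in 2 (without EtOH replicate 4 or calcipotriol replicate 1) and Fos in 1 (without calcipotriol replicate 1). Adjusted p-values ran from 0.00023 to 0.123 for Timp1 and from 0.000143 to 0.114 for Fos over the alternatives.

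The acute-phase genes Saa3 and Serpina3n had high but scattered values. Saa3 ranged from 25 to 86.4 CPM with EtOH and from 56.1 to 294 CPM with calcipotriol (log2 1.83 ± 0.54, edgeR adjusted p = 0.102). Serpina3n, a serine protease inhibitor, ranged from 0.146 to 24.3 CPM with EtOH and from 21.3 to 73.6 CPM with calcipotriol (log2 1.90 ± 0.99, edgeR adjusted p = 0.339). The log2 fold change was 6.17 against EtOH replicates 1 and 2 alone, past both thresholds, 0.95 against EtOH replicates 3 and 4 alone, and 3.44 with limma-voom; its EtOH tumors were at 1.12, 0.146, 24.3 and 23.4 CPM. For Saa3 it was 2.88, past both thresholds, against EtOH replicates 1 and 2 alone and 1.23 against EtOH replicates 3 and 4 alone. The 15 targets not called had log2 fold changes from -1.20 for Icam1, an adhesion molecule, to 1.90 for Serpina3n. Among them Irf1, an interferon-response factor, was without overlap, at 28.1 to 44.1 CPM with EtOH and 47.4 to 109 CPM with calcipotriol (log2 0.75 ± 0.27, edgeR adjusted p = 0.171).

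**Figure D3:**
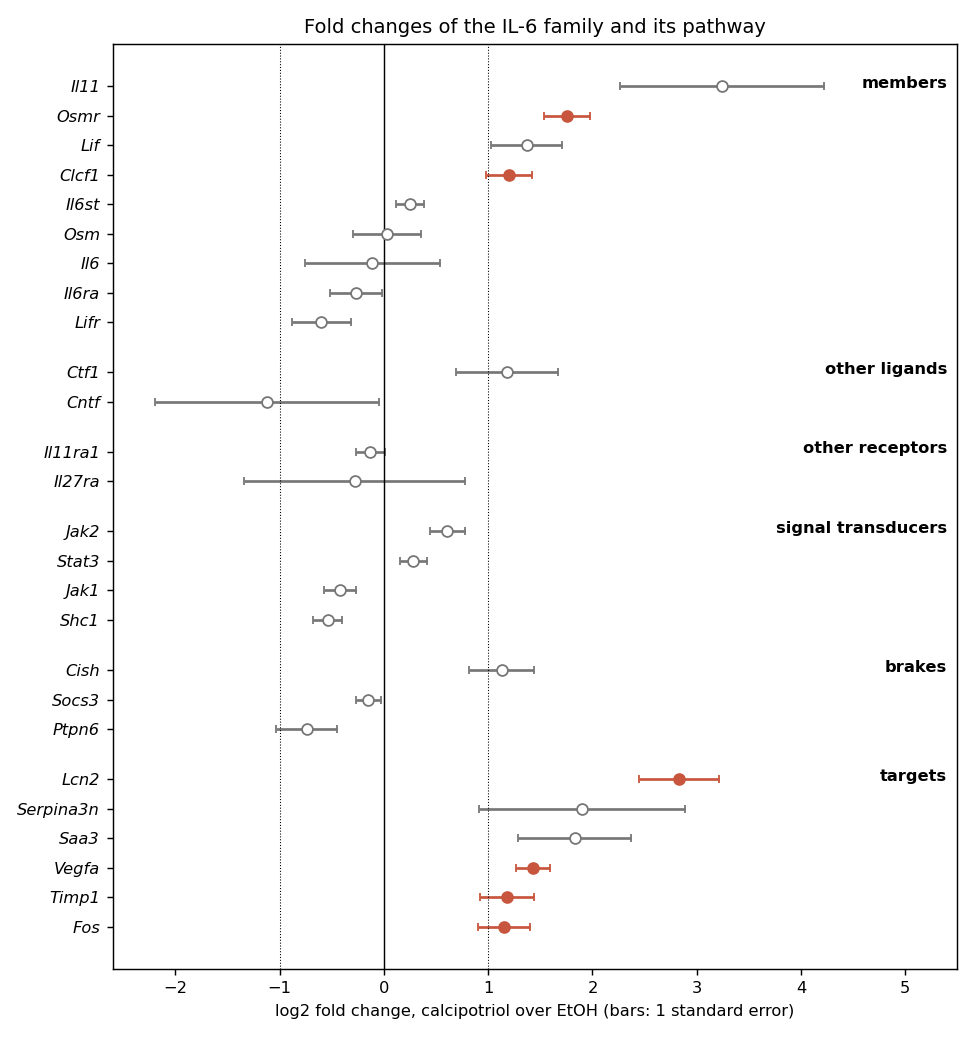
Log2 fold change of calcipotriol over EtOH with 1 standard error for the 9 members and the 17 other pathway genes named, grouped by role; filled red points are past both thresholds and dotted lines mark a log2 fold change of 1 in each direction. Osmr and Clcf1 among the members and Lcn2, Vegfa, Timp1 and Fos among the others are filled, and the transducers and brakes are all open.

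Markers of other cell types differed between the same tumors and stand here beside the members, and their part in the members' differences was not tested. Macrophage markers, of cells that make oncostatin M, summed to 1733 to 2131 CPM with EtOH and 921 to 1555 CPM with calcipotriol. Of 7 listed, Adgre1 and Csf1r were lower and Cd163 higher by edgeR, DESeq2 and limma-voom, and C1qb was lower by the last 2. At an unadjusted p under 0.05 by edgeR 1 was higher and 5 lower. Endothelial markers summed to 113 to 259 CPM with EtOH and 43.9 to 95.9 CPM with calcipotriol. Of 5 listed, Pecam1 and Kdr were lower by edgeR, Emcn as well by DESeq2, and Kdr alone by limma-voom. All 3 erythroid markers were lower, at 2357 to 3895 CPM against 298 to 540 CPM. Fibroblast markers, of cells known to respond to oncostatin M, summed to 1221 to 2467 CPM with EtOH and 1764 to 3438 CPM with calcipotriol and so overlapped, with 0 of 6 called by edgeR, DESeq2 or limma-voom and 1 higher at an unadjusted p under 0.05. Of 7 epithelial markers 4 had a positive and 3 a negative log2 fold change. Krt14 was higher by edgeR and DESeq2 but not by limma-voom, at 0 to 1.5 CPM with EtOH and 1.59 to 46.3 CPM with calcipotriol. The abundant Krt8 and Krt18 were separated downwards, with log2 fold changes of -0.69 and -0.93 and edgeR adjusted p of 0.0966 and 0.0162. Krt8 met neither threshold, and Krt18 met that on adjusted p but not the fold change minimum. The list summed to 1016 to 1322 CPM with EtOH and 603 to 893 CPM with calcipotriol. Neutrophil markers overlapped at 27.7 to 91.3 CPM and 36.9 to 133 CPM, mast cell markers at 5.11 to 33.2 CPM and 9.73 to 29.4 CPM, skin markers at 9.8 to 13.6 CPM and 3.97 to 15.1 CPM, and skeletal muscle markers at 0.584 to 29.3 CPM and 0 to 3.48 CPM. T cell, B cell and adipocyte markers summed to at most 9.14, 1.46 and 2.97 CPM in any tumor. In these last 7 lists 0 genes were past both thresholds by edgeR, DESeq2 or limma-voom, and 3 were lower at an unadjusted p under 0.05 by edgeR.

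Within the EtOH group the members were not uniform. EtOH replicates 3 and 4 were the highest for Osm, Lif, Il6 and Osmr, and EtOH replicates 1 and 2 were the highest for Il6ra. Highest over lowest within the group was 3.23 for Osm, 3.17 for Lif, 7.98 for Il6, 1.84 for Osmr, 2.24 for Il6ra and 1.42 for Il6st. The same tumors differed in markers: skeletal muscle markers summed to 0.584, 0.925, 27.9 and 29.3 CPM in EtOH replicates 1 to 4, fibroblast markers to 1221, 1342, 2467 and 2253 CPM, mast cell markers to 5.11, 9.44, 33.2 and 33.1 CPM, neutrophil markers to 83.6, 91.3, 29.3 and 27.7 CPM, and endothelial markers to 218, 259, 119 and 113 CPM. Within the fibroblast list Col1a1, Col1a2, Lum and Thy1 were higher in EtOH replicates 3 and 4, whereas Pdgfra and Dcn were lower there. In EtOH replicates 1 to 4 Col1a1 was at 303, 271, 1155 and 1040 CPM. Pdgfra was at 187, 202, 86.3 and 63.8 CPM and Dcn at 456, 616, 319 and 292 CPM. No label sets these tumors apart, and the part of the markers in the members' spread was not tested. Calcipotriol replicate 1 was the lowest of its group for Osm, Lif, Clcf1, Il6, Osmr and Il6ra and the highest for Lifr.

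The genes most alike to each of the 4 separated members were found among tested genes with a mean of at least 5 CPM, by the root mean square difference of log2 CPM, centred on each gene's mean, over the 8 tumors. This is a description over the same tumors that share the treatment and the differences among EtOH replicates just given. For Osmr they were Medag, a gene of adipocyte differentiation, the myotubularin-related Mtmr7 and the albumin gene Alb, with differences of 0.18, 0.18 and 0.25. Medag was at 14.8 to 29.1 CPM with EtOH and 73.4 to 80 CPM with calcipotriol. For Lif they were the Wnt antagonist Sfrp1 (0.16), the complement protease gene C1ra (0.17) and the heme oxygenase gene Hmox1 (0.21). Sfrp1 shared with Lif the step among EtOH tumors, at 19.4, 16.9, 58.7 and 44.9 CPM in EtOH replicates 1 to 4 and 85.2 to 122 CPM with calcipotriol.

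Osmr and Lif were close to each other too, with a difference of 0.32, Osmr being the 10th nearest to Lif and Lif the 12th nearest to Osmr of 10714 candidates. For Clcf1 the most alike genes were Fosb, an AP-1 subunit (0.17), Nfkbiz, an inducible NF-kappaB cofactor (0.18), and the neuronal enolase gene Eno2 (0.21). Fosb was at 126, 80.6, 102 and 80.3 CPM with EtOH and at 162, 276, 265 and 263 CPM with calcipotriol, lowest in calcipotriol replicate 1 as Clcf1 was. For Il11, whose counts are few, no gene was near: Cacna1c, a calcium channel subunit, differed by 0.59, the histone gene H2afy2 by 0.62 and Klhl22, an adaptor of a ubiquitin ligase, by 0.71.

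**Figure D4:**
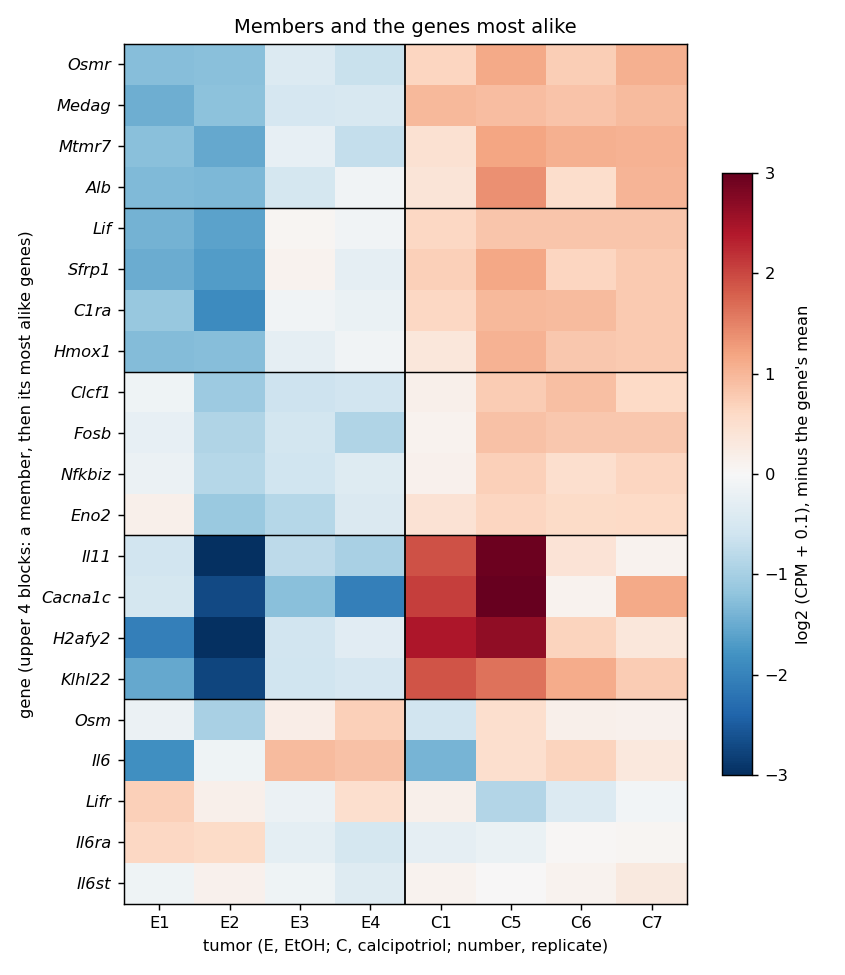
Log2 of CPM plus 0.1, minus the gene's mean over the 8 tumors (color, limited to 3 in each direction), for the 4 separated members, each followed by its 3 most alike genes, and for the other 5 members in the lowest block. Osmr, Lif and their like genes step up between EtOH replicates 1 and 2 and EtOH replicates 3 and 4 and again with calcipotriol, as in Lif at 13.3 to 42.1 CPM with EtOH and 62.2 to 73.1 CPM with calcipotriol, while Il11 is highest in calcipotriol replicates 1 and 5.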

How the data were processed

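RNA from 4 EtOH-treated and 4 calcipotriol-treated tumors was sequenced by the authors, who deposited 1 table of expected counts (estimated read counts per gene, not scaled between tumors). The submitters' processing notes name STAR 2.5.3, RSEM 1.3.1, DESeq2 1.24.0 and GRCm38, without their roles, and the annotation is not given in the sources used here. The paper names a HiSeq and the labels a NovaSeq sequencer. Strand use in counting is not stated, so reads of overlapping antisense genes cannot be told apart. It has 0 columns from other samples.

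The tests were planned for whole counts, and the deposited estimates were rounded to whole counts. Symbols, positions and exon lengths came from GENCODE M21 (GRCm38), in which 52081 of 55414 identifiers matched; the others took 0.313% to 1.99% of counts and stayed in the tests. All 8 tumors entered 1 fit without covariates in edgeR 4.0.16 (R 4.3.3), with low counts removed by filterByExpr, TMM scaling, glmQLFit and glmQLFTest, and p-values were adjusted by Benjamini-Hochberg over 14458 genes. Alternatives were DESeq2 1.42.0 (test, and size factors), limma-voom (limma 3.58.1), no low-count filter, a minimum of 10 counts in every tumor, no fold change minimum, the longest transcript as length, and each tumor left out. Counting limits (3 counts) cover counting error only. The mean squared difference between replicate libraries of a group was at least 20.1 times that from counting error alone, so none was counted as a repeat. The labels and the paper describe separate tumors. The scripts were tested on simulated data.

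Genes that are not reported here were left out of the pathway lists and their counts. The members and gene lists were chosen with earlier results of these data known. Named besides the members are pathway genes past both thresholds, the 2 of each role with the largest absolute log2 fold change, Jak1, Stat3 and Socs3, and for each separated member its 3 most alike genes; Cntfr, Il31ra, Il31, Icam1 and Irf1 and the marker genes with a value were picked after their values were seen.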

Additional observations from a re-analysis of the deposited data

Results flagged for a closer look

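A value was singled out where, in a group of 4 tumors, the lowest or highest was set apart from the nearest other by more than 0.829 of the group's range on the scale of log2 (CPM + 0.1), by Dixon's criterion. Values below are in CPM. Of 52 gene and group pairs examined, 5 met it, where chance gives about 1 in 20, or 2.6. Lif was at 62.2 CPM in calcipotriol replicate 1 and at 72 to 73.1 CPM in the other calcipotriol tumors. Il6 was at 0.834 CPM in calcipotriol replicate 1 and at 2.97 to 3.80 CPM in the others. Fos was at 370 CPM in the same tumor and at 642 to 700 CPM in the others. Il11 was at 0 CPM in EtOH replicate 2 and at 0.309 to 0.438 CPM in the other EtOH tumors, values of 7 to 9 counts. Socs3 was at 138 CPM in EtOH replicate 2 and at 161 to 165 CPM in the others.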

How the results depend on the processing

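Members higher past both thresholds numbered 2 in the main test and 4 with DESeq2 (Lif and Il11 added). They numbered 3 with limma-voom and 3 with no low-count filter (Lif added in each). With a tumor left out they numbered 1 to 2, and Clcf1 was lost without EtOH replicate 2 or 3 or calcipotriol replicate 5, 6 or 7. Other pathway genes called higher numbered 4, and 2 to 5 with a tumor left out (2 without EtOH replicate 1, 2 or 3 or calcipotriol replicate 5, 6 or 7); those called lower numbered 0, and 0 to 2 with a tumor left out (2 without calcipotriol replicate 1). Over all genes, 155 higher and 137 lower became 247 and 211 with no low-count filter, 324 and 320 with DESeq2, and 68 to 241 and 41 to 401 with a tumor left out, the highest of both without calcipotriol replicate 1. In fits chosen after seeing the data, EtOH replicates 3 and 4 alone gave 64 genes lower, and EtOH replicates 1 and 2 alone gave 7 other pathway genes higher, 326 genes higher and 279 lower. Cntf turned from a log2 fold change of -1.12 to 0.80 with EtOH replicates 3 and 4 alone, and Il27ra, at -0.28, ran from -0.70 to 0.15 with a tumor left out (0.15 without EtOH replicate 2, 0.13 without calcipotriol replicate 5). The causes were not tested. Of the members' fold changes under the alternatives, 131 moved within the replicate spread and 3 beyond it: with EtOH replicates 1 and 2 alone, Lif to 2.30 and Osmr to 2.19, and with EtOH replicates 3 and 4 alone, Il6ra to 0.33. No paired analysis was made, because neither the labels nor the paper pair an EtOH-treated with a calcipotriol-treated mouse. Depth limits Il11, Il6, Ctf1, Cntf and Il27ra, with at most 133 counts in any tumor.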
